A study of Neurospora crassa with 10 samples.

Results

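Genes near the chromosome ends of the filamentous fungus Neurospora crassa are described here: those whose body lies wholly within 200 kb of an end of a linkage group, the fungal name for a chromosome. The ends were taken as the outermost positions in the deposited features, which are genes in 4 lists by wild-type expression and the wild-type domains of H3K9me3. By this rule 695 of the 9729 listed genes (7.14%) were end genes, spread over the 14 ends of the 7 linkage groups. Left and right below mean the end with the low and with the high coordinates. The rule used positions only, so the expression lists and the domain cover of these genes are separate from it, except that the outermost domains helped to set the ends.

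The study followed the exchange of histone H3 in germinated conidia, the sprouting asexual spores. All strains carried Pvvd::hH3-3xFLAG::his-3+, a tagged histone H3 gene driven by the promoter of the blue-light-induced gene vvd. The 10 libraries form 5 groups of 2: wild type (mat a), Δdim-2::hph (mat a), Δhda-1::hph (mat a), Δdim-5::bar (mat ?) and Δhpo::hph (mat ?). Per the labels, dark cultures at 32 °C grew for 18 h, spent 3 h with 100 mM hydroxyurea, which stops DNA replication, then had 2 min of 465 nm light and were fixed with 0.5% formaldehyde. Values of single libraries were not analysed here and their depth is unknown, so genotypes were not compared. Wild-type reference features are what was analysed: 346 H3K9me3 domains and 4 expression lists, called here the lowest list (lowest 25%, 2433 genes), the low-middle list (25-50%, 2431), the high-middle list (50-75%, 2432) and the highest list (highest 25%, 2433). Where the ranking came from, its unit and its culture were not given in the sources read, and the names of the middle lists were taken as percentiles rising with expression. Because the lists carry no replicates and neighbouring genes are not independent, no test across genes was run. Shares are set beside the same share over all genes or over the 9034 genes farther from ends, and their Wilson 95% intervals cover counting error alone.

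H3K9me3 is the histone mark of constitutive heterochromatin, the condensed and gene-poor chromatin that in Neurospora forms on AT-rich relics of repeats, at centromeres and at telomeres. It is set by the methyltransferase DIM-5, and heterochromatin protein 1, the product of hpo, binds it. Next to the telomeres, long stretches of Neurospora chromatin also carry H3K27 methylation, the mark of facultative heterochromatin, which is set by the Polycomb complex PRC2. No H3K27 methylation data were analysed here.

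Weakly expressed genes made up a larger share of the end genes than of other genes. The lowest list held 254 of the 695 end genes (36.5%, interval 33.0 to 40.2), against 25% of all 9729 genes and 24.1% of the genes farther from ends. The low-middle list held 195 (28.1%, 24.8 to 31.5) and the high-middle list 130 (18.7%, 16.0 to 21.8). The highest list held 116 (16.7%, 14.1 to 19.6), against 25% of all genes and 25.6% of the genes farther from ends. Read the other way, 10.4% of the lowest list, 8.02% of the low-middle list, 5.35% of the high-middle list and 4.77% of the highest list lay within 200 kb of an end. On VII the lowest list was about as frequent at the ends as elsewhere, with 33.0% against 32.1%, and on I the gap was widest, with 37.1% against 19.5%.

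**Figure D1:**
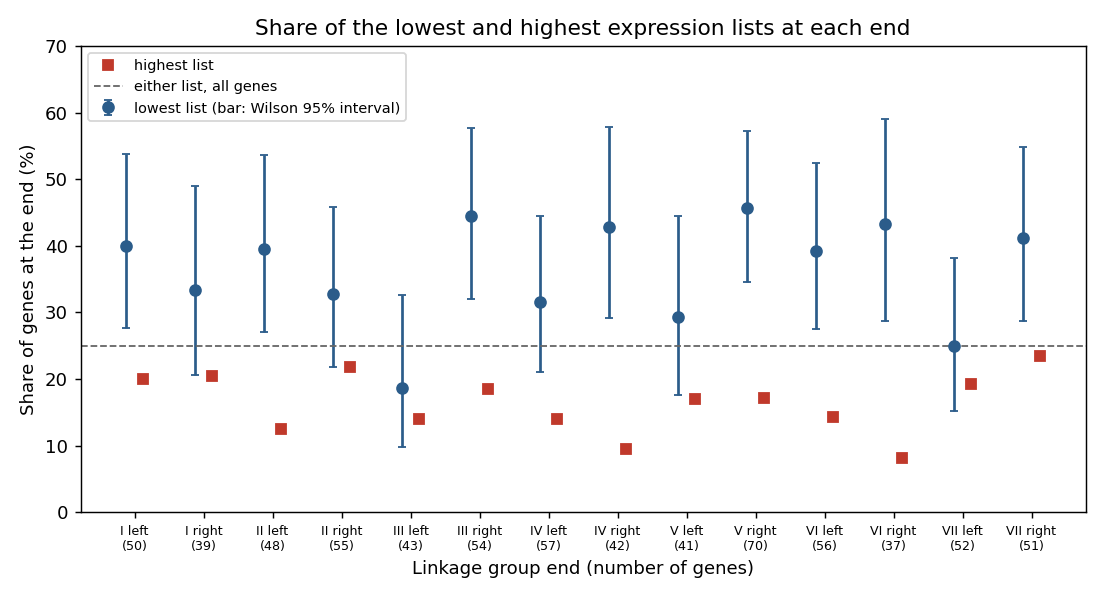
Share of the genes at each of the 14 ends that belonged to the lowest list (blue circles, with Wilson 95% intervals) and to the highest list (red squares), in percent. The dashed line marks the 25% that either list makes up of all 9729 genes; the lowest list was above it at 12 ends and the highest list was below it at all 14.

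Single ends differed in how far they followed this. The right end of V had the largest share of the lowest list, 32 of 70 genes (45.7%), followed by the right ends of III with 24 of 54 (44.4%), VI with 16 of 37 (43.2%), IV with 18 of 42 (42.9%) and VII with 21 of 51 (41.2%). The left ends of I (20 of 50), II (19 of 48) and VI (22 of 56) lay between 39.3% and 40.0%. At the right ends of I (13 of 39) and II (18 of 55) and the left ends of IV (18 of 57) and V (12 of 41), the share was between 29.3% and 33.3%. The left ends of III and VII were the exceptions. On III left, 8 of 43 genes were in the lowest list (18.6%) and 20 in the low-middle list, and on VII left 13 of 52 were in the lowest list (25%) and 18 in the low-middle list. The highest list ranged from 3 of 37 genes on VI right (8.11%) to 12 of 51 on VII right (23.5%), which was above the share in the rest of VII (22.2%). It was below the share in the rest of the same linkage group at the other 13 ends. The lowest-list share was above that in the rest of the same linkage group at 12 of the 14 ends, all but III left and VII left. Its interval lay wholly above the 25% of all genes at 8 ends. This is a description and no test, since the intervals take genes as independent.

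Inside the windows, the lowest list was less frequent at the very end than farther in. Among the 144 genes within 50 kb of an end it held 43 (29.9%, interval 23.0 to 37.8), at 50 to 100 kb 59 of 192 (30.7%, 24.6 to 37.6), at 100 to 150 kb 64 of 162 (39.5%, 32.3 to 47.2) and at 150 to 200 kb 88 of 197 (44.7%, 37.9 to 51.6). Genes were placed by the edge farther from the end. At 10 of the 14 ends the outer 100 kb had the smaller share, with 2 of 24 genes against 6 of 19 on III left, 4 of 28 against 14 of 29 on IV left and 4 of 32 against 9 of 20 on VII left. The other 4 ends, II right, V left, V right and VII right, went the opposite way. The highest list showed no such gradient, with 16.0%, 17.2%, 18.5% and 15.2% in the same 4 bins. The high-middle list held 21.5% and 24.5% in the outer bins and 15.4% and 13.7% in the inner bins.

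The 200 kb line was not a border of the expression pattern. From 200 to 500 kb the lowest list held 445 of 1036 genes (43.0%, interval 40.0 to 46.0), more than inside the line, and the highest list 15.6%. It then held 32.8% at 500 to 1000 kb and 18.9% of the 6403 genes farther than 1000 kb from any end. Linkage group III contributed most to the plateau, with 98 of 147 genes between 200 and 500 kb in the lowest list (66.7%), and without III the share went from 42.4% at 100 to 200 kb to 39.0%. Against 100 to 200 kb, the share between 200 and 500 kb was higher on III (41.9% to 66.7%) and V (37.5% to 53.7%) and lower on the other 5 linkage groups, which were I (40.3% to 29.3%), II (35.6% to 26.95%), IV (48.2% to 37.5%), VI (50.0% to 47.7%) and VII (42.0% to 37.3%). Of the last gene inside the line at each end, 8 of 14 were in the lowest list, 2 in the low-middle list, 3 in the high-middle list and 1, rtg2 on I right, in the highest list. Of the first gene outside, 9 were in the lowest list, 2 in the low-middle list, 1 in the high-middle list and 2 in the highest list.

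**Figure D2:**
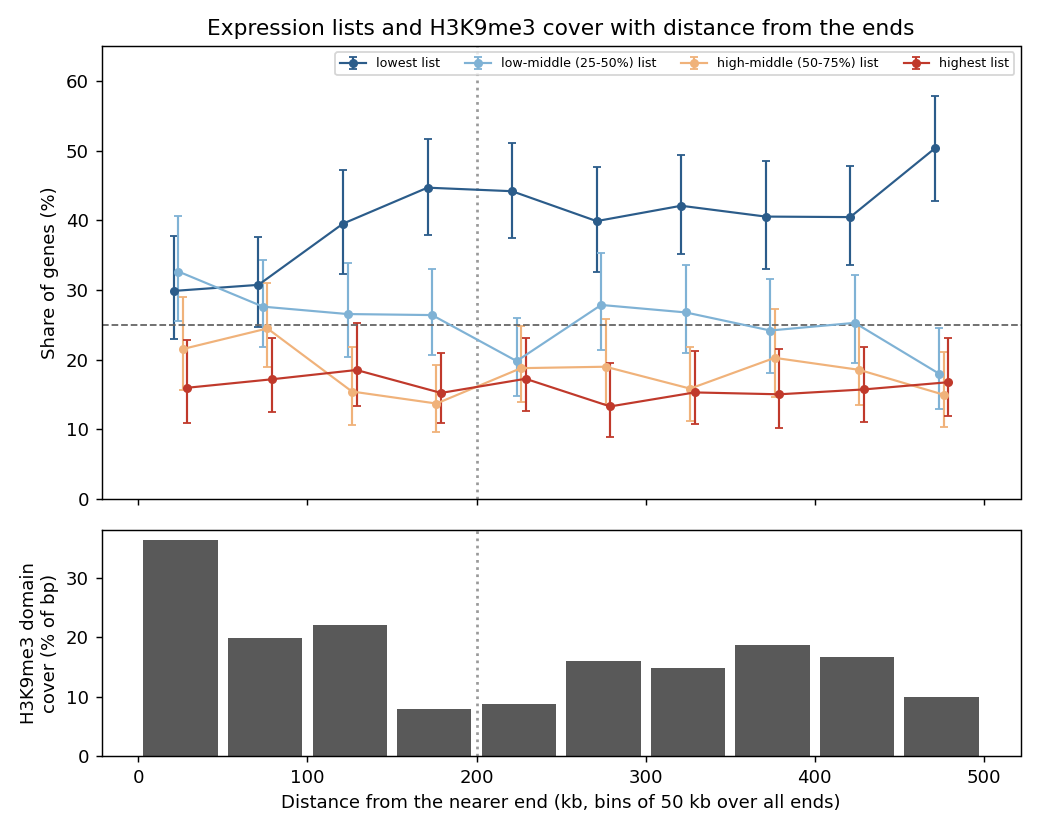
Upper panel: share of genes in each of the 4 expression lists (percent, with Wilson 95% intervals) in 50 kb bins of distance from the nearer end, pooled over the 14 ends; the dashed line marks 25% and the dotted line 200 kb. Lower panel: percent of base pairs inside an H3K9me3 domain in the same bins, highest in the outermost bin (36.3%), where the outermost domains themselves set the ends; with ends from the gene lists alone that bin was at 16.8%.

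How much of the windows H3K9me3 covered depended on where the ends were set. The ends are domain edges at all 14 ends, so the cover of the outermost sequence partly follows from the rule. Domains covered 36.3% of the sequence within 50 kb of an end, 19.8% at 50 to 100 kb, 22.1% at 100 to 150 kb and 7.97% at 150 to 200 kb. With ends taken from the gene lists alone, the same 4 bins were covered over 16.8%, 15.2%, 19.9% and 7.32%, while the lowest list still held 31.3%, 31.9%, 39.5% and 43.9% of their genes. Over the whole windows the cover was 21.6%, against 15.8% of the remaining sequence. With ends from the gene lists alone it was 14.8% against 15.9%, which turns the order. That setting leaves out the gene-free stretches outside the outermost genes, which domains fill completely or nearly so. It thus takes domain sequence out of the windows by construction. With the ends as defined, the spread between ends was wide (SD 12.6 percentage points, n = 14 ends). IV right was the most covered, with 9 domains over 49.5% of its 200 kb, followed by I right with 42.0% and VI right with 31.6%. V right, the end with the largest share of the lowest list, was the least covered, with 2 domains over 2.55%. The 54 domains that reached a window had a median length of 8.4 kb (interquartile range 2.3 to 15.3) and none was longer than 57.3 kb, whereas the 292 other domains had a median of 10.2 kb and reached 349.2 kb.

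At every end the outermost listed feature was a domain and not a gene, so by the rule the end is that domain's edge. This domain was between 1.8 kb (I left, IV left, VI left and VII left) and 57.3 kb long (VI right). The gene-free stretch outside the outermost listed gene varied with it. It was under 1.4 kb at I left, III right, IV left, V right, VI left and VII left, between 7.7 and 9.3 kb at II left, II right and III left, and 18.9 kb at V left, 19.7 kb at VII right, 26.4 kb at I right, 49.3 kb at IV right and 55.9 kb at VI right. Domains covered this stretch completely at 12 ends, to 99.9% at I right and to 93.9% at IV right. Each stretch begins with the domain that set the end, so this cover partly follows from the rule. Since both the ends and these stretches were read from the listed features, how far the true telomeres lie beyond them was not determined.

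**Figure D3:**
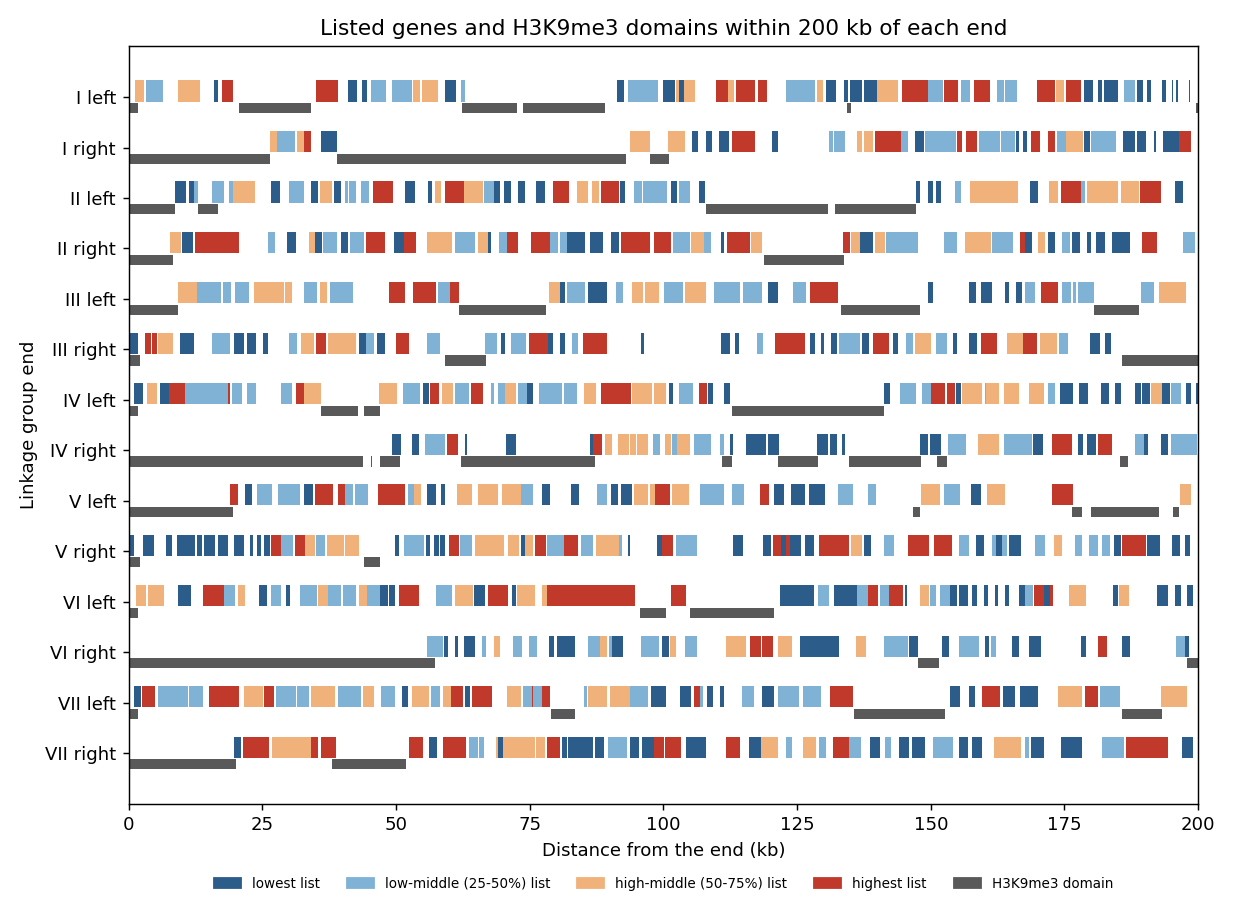
Map of the 14 ends, with distance from the end in kb on the horizontal axis, the 695 end genes as blocks coloured by expression list and H3K9me3 domains as grey bars below them. V right has only 2 short domains and opens with a run of 11 lowest-list genes, while IV right has 9 domains and no gene in its outer 49.3 kb.

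At 13 of the 14 ends the outermost gene reached into a domain, where 5.47% of all end genes did. Every end is a domain edge, and domains fill all or nearly all of the stretch up to that gene. This contact thus largely follows from the rule. Of the 14 outermost genes, 7 were in the lowest list, 1 in the low-middle list, 5 in the high-middle list and 1 in the highest list. Domains covered NCU16718 on III right (III, 5272185 to 5273718) and NCU17054 on V right (V, 6435237 to 6435860) completely. Both are in the lowest list and lie 282 bp and 340 bp from the end. Other outermost genes of the lowest list were NCU10037 on IV right (87.1% covered), NCU09306 on VII left (64.2%), NCU10285 on IV left (44.2%), NCU05903 on VII right (32.6%) and NCU09634 on II left (3.52%). Outermost genes of the higher lists were covered in part. NCU08882 of the highest list, 18.9 kb from the left end of V, was covered over 37.3% of its 1593 bp. In the high-middle list, NCU10129 on I left was covered over 37.6%, set-6 on II right over 30.8%, NCU07143 on VI left over 25.6% and NCU09526 on III left over 1.27%. The table of gene names gives set-6 (NCU09495, II, 4468613 to 4470618) its own symbol, and SET-domain proteins as a family include the histone methyltransferases. NCU04991 of the low-middle list on VI right was covered over 48.4%, and NCU10031 of the high-middle list on I right was the only outermost gene that no domain touched.

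End genes overlapped domains more often than other genes, although 657 of the 695 did not. The overlap was at least 1 bp for 38 end genes (5.47%, interval 4.01 to 7.42), against 2.17% of all genes and 1.91% of those farther from ends. The outermost 50 kb held 15 of the 38 (among 144 genes), the next 50 kb 10 (among 192), then 9 (among 162) and 4 (among 197). Of the 38, 13 were the outermost gene of an end, whose contact with a domain largely follows from the rule. With ends from the gene lists alone, 5.06% of end genes overlapped, against 1.93% of other genes. Of the lowest list 19 of 254 end genes overlapped (7.48%, 4.84 to 11.4), of the low-middle list 6 of 195 (3.08%), of the high-middle list 7 of 130 (5.38%) and of the highest list 6 of 116 (5.17%). Lowest-list genes were 19 of the 38 overlapping end genes (50%, interval 34.8 to 65.2), against 36.5% of all end genes. Elsewhere they were 46 of the 173 overlapping genes (26.6%), against 24.1% of all genes farther from ends. The right end of IV alone held 11 of the 38, 9 of them in the lowest list, and without linkage group IV the share of end genes that overlapped was 4.19%.

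At least 50% of the gene lay in a domain for 10 end genes (1.44%, interval 0.783 to 2.63), against 0.534% of all genes, and 5 were covered completely, against 0.319% of all genes. Besides the outermost genes NCU16718, NCU17054, NCU10037 and NCU09306, these were NCU16904 (IV, 5913829 to 5914260), NCU10070 (IV, 5928092 to 5930117) and NCU16905 (IV, 5937270 to 5937656), all 3 covered completely, NCU05171 on the same end (61.8%), NCU09914 on I left (64.2%) and NCU09631 on II left (51.9%). Of the 10, 8 were in the lowest list, 5 of these on IV right, and NCU09914 and NCU09631 were in the low-middle list. Farther from ends, 21 of the 42 genes covered that far were in the lowest list. With 5 of the 10 on IV right, leaving out linkage group IV lowered the share of end genes at least 50% covered to 0.839%. Counting only genes with locus tags below NCU10000 lowered it to 0.680%, since 6 of the 10 carry higher tags.

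The 6 overlapping end genes of the highest list were all covered over less than 38% of their length. Farther from ends, 9 of the 50 overlapping genes of that list were at least 50% covered. A set of 6 can hold none without standing apart. After NCU08882, the most covered was NCU05160 on IV right (IV, 5912162 to 5913850) with 550 bp or 32.6%, which shares its last bases with the fully covered lowest-list gene NCU16904. NCU05899 on VII right had 652 bp (23.5%) and NCU09754 on II right 288 bp (20.7%) in a domain. NCU08847 on V left (6.83%) and NCU09510 on III left (0.605%) were touched at an edge. The overlaps of NCU09754, NCU08847 and NCU09510 are shorter than 300 bp, the step in which domain lengths come. With each domain shortened by 300 bp on both sides, 3.17% of end genes overlapped, against 0.974% of other genes.

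Proximity to domains did not order the lists near the ends as it did elsewhere. The median distance to the nearest domain was 19.3 kb for end genes of the lowest list, 16.3 kb for the low-middle list, 18.6 kb for the high-middle list and 17.6 kb for the highest list. The highest list thus lay 1.73 kb nearer to domains than the lowest list (difference of medians, highest minus lowest, -1.73 kb). The spread of this difference was not computed. Distances of end genes were shorter throughout, with a median of 18.5 kb against 41.6 kb farther from ends, and every end is itself a domain edge. Among genes farther than 200 kb from ends the medians were 34.4 kb for the lowest list and 45.5 kb for the highest, a difference of 11.1 kb, close to the 11.2 kb over all genes. The difference over all genes was therefore about as large without the end genes.

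Outside domains, genes covered the same share of the sequence near the ends, pooled, as elsewhere. The windows held 24.8 genes per 100 kb, against 23.99 in the remaining sequence. Per 100 kb outside domains, they held 31.6 genes against 28.5, with a range over the ends from 25.05 on V left to 41.6 on IV right. Listed genes covered 67.1% of domain-free sequence both in the windows and in the remaining sequence, and 3.16% of domain sequence against 1.58%.

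End genes were shorter than all other genes pooled, with a median listed interval of 1902 bp (order-statistic 95% interval 1821 to 1980) against 2154 bp farther from ends. Genes in the adjoining sequence were as short, with a median of 1866.5 bp at 200 to 500 kb and 1979 bp at 500 to 1000 kb, against 2254 bp beyond. Within single lists the medians were closer. They were 1325 bp against 1215 bp in the lowest list, 2072 bp against 2096.5 bp in the low-middle list, 2368.5 bp against 2544.5 bp in the high-middle list and 2894.5 bp against 2710 bp in the highest list. Short genes are frequent in the lowest list, so the shares were also set against those of genes of the same length. With the list shares of each length decile of all genes, 204.2 end genes (29.4%) would be in the lowest list and 158.4 (22.8%) in the highest, against the 254 and 116 counted. In 4 length classes with equal numbers of all genes, the lowest list held 65.2% of the 227 shortest end genes (up to 1454 bp) against 61.1% of other genes that short. It held 37.4% against 21.5% in the second class, 18.8% against 11.4% in the third and 7.84% against 3.73% among genes over 3041 bp. The highest list was less frequent among end genes in all 4 classes, from 4.41% against 9.15% among the shortest to 32.0% against 42.2% among the longest. Whether the ranking was itself corrected for gene length is unknown.

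The deposited lists are not stated to be sorted, but end genes were unevenly spread along their rows. Each list was split into 5 equal blocks of rows. All 7 listed ribosomal protein genes named crp stand in the first block of the highest list, and the median interval length was 1626 bp in the first block of the lowest list and 847 bp in its last. End genes were 4.31% of the first block of the highest list and between 3.29% and 6.58% of each block through the rest of that list and the high-middle list. They were 7.60% of the first and 10.7% of the last block of the low-middle list. In the lowest list they were 13.1%, 15.0% (interval 12.1 to 18.4), 11.5%, 7.60% and 4.94% (3.34 to 7.24) of the successive blocks. The last rows of the lowest list thus held end genes about as rarely as the highest list did. Of the last 440 rows of that list 20 were end genes (4.55%), against 234 of its other 1993 rows (11.7%), and of the first 243 rows of the highest list 15 were (6.17%).

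**Figure D4:**
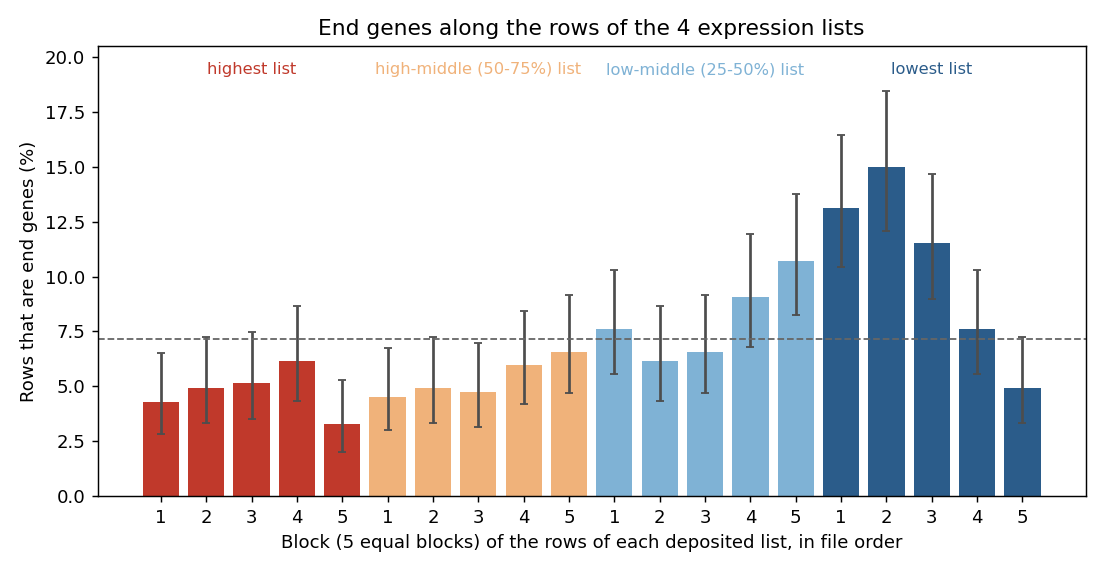
Percent of rows that are end genes in each of 5 equal blocks of rows of the 4 deposited lists, in file order from the highest to the lowest list; bars start at 0, error bars are Wilson 95% intervals and the dashed line marks the 7.14% of all genes. The share was largest in the second block of the lowest list (15.0%) and 4.94% in its last block.

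Neighbouring end genes shared a list about as often as other neighbours. Of 681 adjacent pairs within a window, 223 (32.7%) consisted of genes of a single list, against 32.9% of pairs farther from ends, where the list sizes alone would give 27.5% and 25%. In 120 of the pairs both genes were in the lowest list, in 54 in the low-middle list, in 29 in the high-middle list and in 20 in the highest list. The longest run of lowest-list genes at an end was 11 on V right, from NCU17053 to the outermost gene NCU17054 (V, 6409845 to 6435860), where no other gene interrupted the outer 26 kb. IV right had a run of 8 between 5848609 and 5888184 (NCU05179 to NCU05171), of which 5 overlapped a domain. VI left had 7 (NCU07107 to NCU07102), and I left (NCU08077 to NCU08081) and IV left (NCU07592 to NCU07597) had 6 each. The longest run at the other 9 ends was 3 to 5 genes. Runs were counted among end genes only. The run on I left reaches the 200 kb line, and the first gene outside it, NCU08083, was also in the lowest list.

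Genes with a symbol of their own, which are mostly genes that were studied or assigned to a family, were fewer at the ends and differed in expression from the rest. Of the end genes 58 (8.35%) had one, against 11.7% of genes farther from ends. In the highest list were 23 of the 58, 9 were in the high-middle list, 22 in the low-middle list and 4 in the lowest list. Of genes with a symbol farther from ends 50.1% were in the highest list, against 39.7% here, and 16.3% in the low-middle list, against 37.9% here. Among the 637 end genes known by locus tag alone, 39.2% were in the lowest list and 14.6% in the highest, against 26.5% and 22.4% farther from ends. None of the 58 except set-6 overlapped a domain. Of all 695 end genes 38 overlapped one (5.47%), so a set of 58 can hold so few without standing apart.

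The highest-list genes at the ends included genes of basic cell functions. They were tba-2 (α-tubulin), aac (the mitochondrial ADP/ATP carrier) and acu-8 (acetyl-CoA hydrolase) on II right, hsp70-1 (a chaperone) on II left, and arp2 (an actin-related protein) on V right. The complex I subunit genes nuo14 and nuo21.3c lay on VII left and VI right, crp-7 (a ribosomal protein) and phr (the photolyase that repairs ultraviolet damage with light) on I right, asf-1 (a histone chaperone) on VII left, and cat-1 (catalase) and erg-3 (a sterol reductase) on III right. Of the highest-list genes with a symbol, the nearest to an end was cao-2, a carotenoid oxygenase gene 2.48 kb from the left end of VII (VII, 2483 to 4931), which is the next gene inward of the outermost and 64.2% covered gene NCU09306 and lies outside the domain. Among those with a symbol bek-2 came next, 13.8 kb from the left end of VI, and then nuo14, 25.4 kb from the left end of VII.

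A few end genes have symbols from DNA repair, RNA silencing and polyketide synthesis, and most end genes have no symbol to class them by. The repair genes mus-41 on III left and uvs-3 on IV left, and parp, the poly(ADP-ribose) polymerase gene on V left, were in the low-middle list, and mus-18, an endonuclease gene for ultraviolet damage on V left, in the high-middle list. Of all 21 listed mus genes, the lowest list held 0, the low-middle list 14, the high-middle list 5 and the highest list 2. The lowest list held sms-2, the Argonaute gene of meiotic silencing, 166.8 kb from the left end of VII. It also held pks-2 on VI right. This gene and pks-5, of the low-middle list and 10.5 kb from the left end of IV, are named for polyketide synthases, which make secondary metabolites.

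The remaining end genes with a symbol were spread over all 4 lists. In the low-middle list were ro-10 on I left and ro-12 on V right, named for the ropy hyphae of their mutants, the replication kinase gene cdc7 on VII left, the catalase gene cat-4 on IV right, and un-18, stk-55, stk-52, stk-8, rsk, tzn-2 and amt. The high-middle list held cyt-21 on I left, which encodes a mitochondrial ribosomal protein, his-6 of histidine synthesis on V right, pmb, a permease gene for basic amino acids on IV right, and hym-1, cen-c, gpig-1 and rib-4. In the highest list were also acp-1, an acyl carrier protein gene next to nuo21.3c on VI right, and rtg2, stk-23, leu-6, nit-10, pcb-1 and mig-6. The fourth symbol gene of the lowest list was ci-1 on VI right, 90.4 kb from the end.

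Glycoside hydrolases, the enzymes that break down plant cell wall and storage polysaccharides, were the symbol family with the most end genes. They were also the largest family compared. Of 79 listed gh genes 9 were end genes (11.4%, against 7.14% of all genes). The low-middle list held 6 of them: gh13-3 on II right, gh61-5 and gh3-3 on III right, gh6-3 on V right, gh10-3 on VI right and gh31-1 on VII left. The lowest list held gh10-4 on VI left, 47.1 kb from the end, and the highest list gh3-2 on I left and gh13-6 on VII right. Of all 79, 24 were in the lowest list, 27 in the low-middle list, 15 in the high-middle list and 13 in the highest list. Of 53 stk genes, named for serine/threonine kinases, 4 were end genes (7.55%). The families acw, arg, crf, cys, pex, rpn, tca, tim and vma, with 10 to 20 genes each, had none. With 7.14% of all genes at the ends, a family of that size can hold none without standing apart.

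The short lists of heterochromatin, telomere and incompatibility genes held no end gene, and with 7.14% of all genes at the ends a list of 7 or 10 genes can hold none without standing apart. Of 10 genes of heterochromatin formation, among them the deleted dim-2, dim-5, hpo and hda-1, none was an end gene, and the nearest, dim-2, lay 1060 kb from an end, as far in as most genes, since 6403 of all 9729 lay farther than 1000 kb. The PRC2 methyltransferase gene set-7 lay 408.5 kb from the left end of I. None of 10 sirtuin and telomere maintenance genes was an end gene, where nst-7, a sirtuin gene, was the nearest at 312.0 kb. Of 7 heterokaryon incompatibility genes none was one either, the nearest being un-24 at 315.1 kb. Of 7 conidiation genes 1 was: con-6, of the low-middle list, 68.1 kb from the right end of III. Of the other conidiation genes con-8, con-10 and eas were in the highest list, fl in the high-middle list and con-13 and acon-3 in the lowest list. The lists hold no value of any labelled library, so the tissue of the samples was not checked.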

How the data were processed

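The deposited files hold start and end positions alone: genes split by the authors into 4 lists by expression in the wild type, and wild-type H3K9me3 domains that, per the file name, SICER called. Bowtie2, HOMER and deepTools also stand in the submitters' processing notes. Versions, settings, the genome build and what was corrected in the domain list: not given in the sources used here. In all 9729 gene rows the score is 0 and the strand is +, so neither was used. Starts count from 0 in the files and from 1 in the text; domain ends were included, which puts 337 of 346 lengths on a 300 bp grid, and 10 empty rows were skipped. Where intervals were not stated to be sorted, file order was used as a description.

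Genes were named from RefSeq's gene table for assembly NC12: 9490 intervals had the same position, 238 on VI between 1851685 and 2769626 the mirrored one, and 1 stayed unnamed. All 695 end genes were matched directly. Symbols not found there are not reported.

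Shares, medians and Wilson intervals were computed with Python 3.11.15, pandas 2.3.3 and SciPy 1.17.1, and the interval functions were tested on simulated data. Alternatives changed the window, the end definition, gene models, domains and linkage groups. Profiles beyond 200 kb, row order, length matching, 500 kb windows and binned cover with ends from the gene lists alone were added after the files were examined. The members and lists were chosen with earlier results of these data known. The text names the outermost genes, genes at least 50% covered, overlapping highest-list genes, ends of the longest runs, genes with symbols and 5 symbol lists. Promoter sequence and GC content were not analysed here.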

Additional observations from a re-analysis of the deposited data

How the results depend on the processing

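Across 13 to 15 alternatives per result, the share of the highest list (15.9% to 18.5%), median gene length (1845.5 to 1967.5 bp) and gene density (21 to 26.8 per 100 kb) stayed within the interval of the reported value or, for density, within 1 SD over the ends. Domain cover of the windows ranged from 14.8% to 28.1%, within 1 SD over the ends (12.6 percentage points). It was above the cover of the remaining sequence in every setting tried except ends from the gene lists only, which put it at 14.8% against 15.9%. That setting leaves out the domain-covered stretches outside the outermost genes by construction. Leaving out each linkage group moved no result out of its interval or, for cover and density, out of 1 SD. That SD is between single ends and so a wide limit for a value over all ends. The number of end genes stayed within 1.5 times, which it could not leave, since a group held 89 to 111 of the 695. The number of end genes was 336 with 100 kb windows, 1050 with 300 kb and 1731 with 500 kb. With these windows the lowest list held 30.4%, 38.5% and 40.4%, against 24.8%, 23.4% and 21.7% of the genes outside. Genes overlapping a domain were 7.44% with 100 kb windows, 3.64% with 500 kb, 3.74% with domains of at least 3 kb and 3.17% with shortened domains, each above the share outside. Genes at least 50% covered were 2.68% with 100 kb windows and 0.680% with locus tags below NCU10000, against 0.458% and 0.403% outside. Adjacent pairs sharing a list were 38.0% with 500 kb windows. The 500 kb window was chosen after seeing the data. The change in the number of end genes follows from the window size. For the shares that moved, the cause was not tested.

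Promoter GC content, a planned result, was not run. No paired analysis was possible because the analysed lists hold no value of any library. Depth is unknown, and the number of genes at 1 end, 37 to 70, limits its share.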
